A study of Capra hircus with 27 samples.

Results

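The heart-enriched genes of the goat were described across heart, lung and skeletal muscle and across 3 altitudes. They were chosen by their level: among genes whose deposited ID starts with GOAT_, those whose mean log2(FPKM + 1) over the 9 heart libraries was at least 3 above the larger of the lung and muscle means, and whose heart mean was at least 5 FPKM. FPKM is a fragment count corrected for transcript length and for the size of the library. Of 22131 genes in the table, 17671 had such an ID and 87 passed both limits, so all 87 were taken and the upper limit of 150 genes was not reached. Another 9 genes with IDs of other kinds passed the same 2 limits and were left out. The heart difference that chose the 87 genes is a description below and was given no test. The altitude comparisons within a tissue were not used in the rule. The heart mean was taken over all altitudes, however, so a gene near the limit could pass it through high hearts at a single altitude. The counts by altitude below are therefore not wholly independent of the choice.

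RNA sequencing was available for 27 libraries, 3 from each tissue of goats about 3 years old that lived at 600 m (Ya'an, Sichuan), 2000 m (Zhaotong, Yunnan) or 3000 m (A'ba Tibetan autonomous area, Sichuan). The methods of the study describe the 600 m and 3000 m animals as unrelated adult females. No treatment was named for any group. Each altitude is 1 population, so altitude, place and population cannot be told apart.

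The heart beats without rest, and its muscle cells use their own forms of many contractile, ion channel and metabolic proteins, some of which skeletal muscle also makes. Hearts also produce natriuretic hormones, whose release rises when the chamber wall is stretched, and they hold fibroblasts, vessel cells, nerve cells and a conduction system beside the muscle cells. A gene that is far higher in heart than in both lung and skeletal muscle can therefore belong to any of these cell types. The deposited file gives each gene only an annotation ID, and none of the IDs had an entry in the available list of goat gene names (0 matches). The genes are therefore named by ID alone, with no function given, and the label of heart was not checked against known marker genes. The 87 IDs comprised 42 of the form GOAT_ENSP and 45 of the form GOAT_ENSBTAP, and 3 of them carried the suffix -D2.

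Without read counts among the deposited values, absolute depth stays unknown. The depth of the libraries relative to each other, estimated from the smallest steps between low FPKM values, ran from 0.809 to 0.970 for hearts, from 0.945 to 1.26 for lungs and from 0.929 to 1.21 for muscles. Muscle replicates 1 and 2 at 600 m differed far less (robust SD of the log2 difference 0.0844) than the 26 other pairs of replicates (0.191 to 0.467) and were counted as 1 sample in the tests. The heart library of replicate 1 at 600 m stood apart from its group for the heart-enriched genes: 10 of the 87 (11.5%) were over 2 times higher in it than in replicates 2 and 3, against 2.31% of the 12363 genes tested in heart. None of the 87 was over 2 times lower in it than in both, against 6.01% of the genes tested. Over the genes tested in heart, the median deviation of this library from the heart mean was -0.20 on the log2 scale. Its part in the results was measured by leaving it out, as given below.

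The 87 genes spanned nearly 3 orders of magnitude in heart level. Their heart means ran from 9.65 to 8075 FPKM with a median of 64.0 FPKM, and 7 genes lay above 1000 FPKM, 23 between 100 and 1000 FPKM, 56 between 10 and 100 FPKM and 1 below 10 FPKM. The median of the means was 1.24 FPKM in lung and 0.878 FPKM in muscle. The heart difference on the log2 scale ranged from 3.01 to 9.94 with a median of 4.06. It was at least 6 for 12 genes, between 4 and 6 for 36 and below 4 for 39. Lung was the second tissue for 49 genes and muscle for 38. On the log2(FPKM + 1) scale the difference cannot exceed the heart value, so a wide difference required a high heart level. A high level did not bring a wide difference, as the plot of tissue levels by rank shows. GOAT_ENSP00000362817, picked after its values were seen, had a heart mean of 1669 FPKM and a difference of 3.01.

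**Figure D1:**
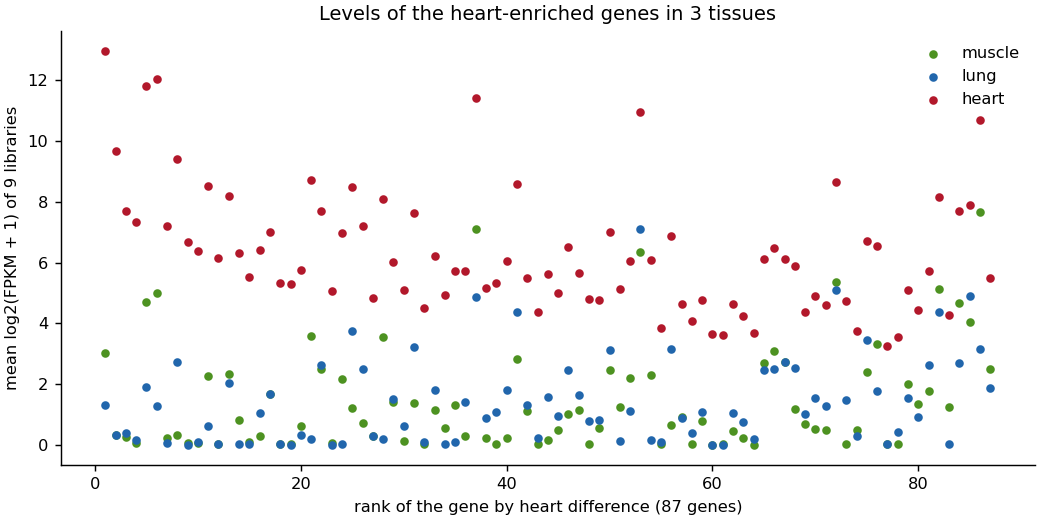
Mean log2(FPKM + 1) over the 9 libraries of each tissue (y axis) for the 87 heart-enriched genes, ordered by the heart difference that chose them (x axis, rank). Heart points lie at least 3 units above the higher of the other 2 points at every rank, and 9.94 units above it at rank 1.

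The separation between tissues is described next for single libraries. The genes were chosen by the means of these same libraries, so little overlap was likely from the choice itself, and the share over all genes is not given. For 85 of the 87 genes, the lowest of the 9 heart libraries was above the highest of the 18 lung and muscle libraries. The exceptions, found after the values were seen, were GOAT_ENSP00000248706-D2, whose lowest heart value of 8.41 FPKM lay below its highest lung value of 10.2 FPKM, and GOAT_ENSBTAP00000000573, whose lowest heart value of 8.07 FPKM lay below its highest muscle value of 9.55 FPKM. No member was listed at 0 in any heart library, while 12 to 22 members per lung library and 6 to 24 per muscle library were listed at 0. A mean below 1 FPKM was found for 40 members in lung, 45 in muscle and 31 in both. Listed at 0 in all 9 lung libraries were GOAT_ENSBTAP00000030882, GOAT_ENSP00000327758, GOAT_ENSBTAP00000003015 and GOAT_ENSBTAP00000012430, and the third of these was also at 0 in all 9 muscle libraries, with a heart mean of 12.3 FPKM.

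The gene with the largest heart difference was also the most abundant. GOAT_ENSBTAP00000008425 was measured at 8354, 7638 and 7401 FPKM in the 600 m hearts, at 6872, 6254 and 7524 FPKM in the 2000 m hearts and at 9739, 10630 and 8266 FPKM in the 3000 m hearts. It was steady between animals, with a highest heart value 1.70 times the lowest, while its lung values stayed at or below 5.51 FPKM and its muscle values at or below 15.5 FPKM. The 3000 m and 2000 m hearts did not overlap, and the 600 m hearts overlapped both. Its heart change was 0.29 (SE 0.16) on the log2 scale at 3000 m against 600 m and -0.18 (SE 0.16) at 2000 m against 600 m, and neither passed the test (limma, adjusted p = 0.253 and 0.437).

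The gene with the second largest heart difference, 9.33 on the log2 scale, was far less steady. GOAT_ENSP00000389202 was measured at 1522, 582 and 219 FPKM in the 600 m hearts, at 1201, 1203 and 1877 FPKM in the 2000 m hearts and at 1356, 2126 and 93.1 FPKM in the 3000 m hearts. Its highest heart value was 22.8 times its lowest, and the highest and the lowest both came from 3000 m. In lung and muscle it did not exceed 1.31 FPKM. The altitudes overlapped, and no altitude change passed the test (limma, adjusted p = 0.935 at 3000 m and 0.414 at 2000 m against 600 m).

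The second most abundant gene, GOAT_ENSBTAP00000006532, was measured at 8018, 976 and 484 FPKM in the 600 m hearts, at 6437, 4263 and 7110 FPKM at 2000 m and at 6317, 2574 and 8676 FPKM at 3000 m. Replicate 1 at 600 m was thus far above the other 600 m hearts and in the range of the higher altitudes. The altitude changes of 1.74 (SE 0.88) at 3000 m and 1.89 (SE 0.88) at 2000 m on the log2 scale did not pass the test (limma, adjusted p = 0.209 and 0.147). Without that library they were 2.92 and 3.07, with adjusted p = 0.00928 and 0.00568. In each comparison this was the only 1 of 12 alternatives that gave a call, and adjusted p in the others reached 0.518 at 3000 m and 0.407 at 2000 m. In muscle this gene also varied widely, from 3.72 FPKM to 203 FPKM.

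Just inside the limit of 3 lay GOAT_ENSBTAP00000000306 with a heart difference of 3.01 and a heart mean of 45.7 FPKM. Just outside lay GOAT_ENSBTAP00000019534 with 2.99 and a heart mean of 14.4 FPKM. No gene with a sufficient difference was lost through the limit on the heart level.

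Together the 87 genes made up 2.91% to 4.89% of the summed FPKM of a heart library, against 0.0672% to 0.0906% in lung and 0.0814% to 0.202% in muscle. The 10 most abundant of them carried 73.6% to 84.1% of that amount in heart, and GOAT_ENSBTAP00000008425 alone carried 20.2% to 30.7%. At 600 m the shares were 4.85%, 3.23% and 2.91% in the 3 hearts (mean 3.66%, SD 1.04). At 2000 m they averaged 4.45% (SD 0.253) and at 3000 m 4.42% (SD 0.423). The 3 altitudes overlapped through replicate 1 at 600 m, as the plot of shares shows. With the 10 most abundant genes set aside, the 600 m hearts held 0.774%, 0.781% and 0.769%, the 2000 m hearts 0.941%, 0.878% and 0.837%, and the 3000 m hearts 0.907%, 0.914% and 0.937%. On that measure every 600 m heart was below every heart from the higher altitudes, and replicate 1 did not stand apart. In muscle the share averaged 0.0849% at 600 m, 0.120% at 2000 m and 0.161% at 3000 m, with SDs of 0.00377, 0.0236 and 0.0417, where the near-identical 600 m replicates 1 and 2 count as 2 of 3 (mean 0.0848% with both as 1 sample, n = 2), and the highest of the 9 libraries was replicate 1 at 3000 m (0.202%). In bulk tissue, fewer cells of a type and less RNA per cell cannot be told apart.

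**Figure D2:**
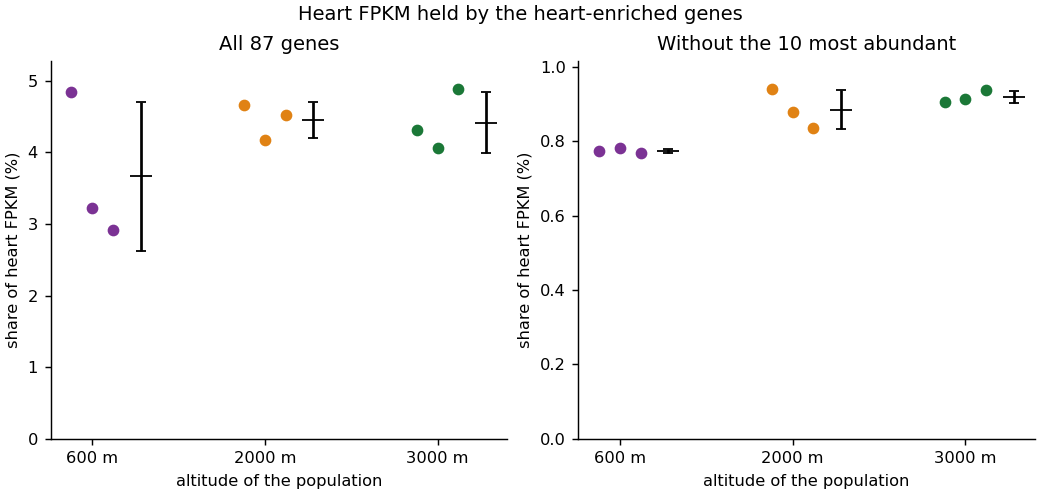
Share of the summed FPKM of each heart library held by the heart-enriched genes (y axis, percent) at 3 altitudes, with all 87 genes (left) and without the 10 most abundant (right). Points are libraries and bars are mean ± SD (n = 3). At 600 m the left points spread from 2.91% to 4.85% and the right points from 0.769% to 0.781%.

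The heart-enriched genes had a wider median spread between animals than the genes of the heart at large. The median SD within altitudes was 0.33 on the log2 scale for the 87 genes and 0.22 for the 12363 genes with a heart mean above 0.5 FPKM. Among the members it ranged from 0.08 to 1.63. The 2 sets differ in level, since the members had heart means of 9.65 FPKM or more and log2(FPKM + 1) narrows the spread of low genes. No comparison at a like level was made. The ratio of the highest to the lowest heart library had a median of 2.49, with 19 members within 2-fold and 16 beyond 5-fold. Of these 16, 11 were lowest in replicate 2 or 3 at 600 m, 4 were lowest in a 2000 m heart, 1 was lowest in a 3000 m heart and 0 were lowest in replicate 1 at 600 m. The members did not move as 1 block over the 9 hearts: the median Pearson r over 3741 pairs of members was 0.12, with 427 pairs above 0.7 and 129 below -0.7. These correlations describe 9 libraries that also share altitude groups.

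**Figure D3:**
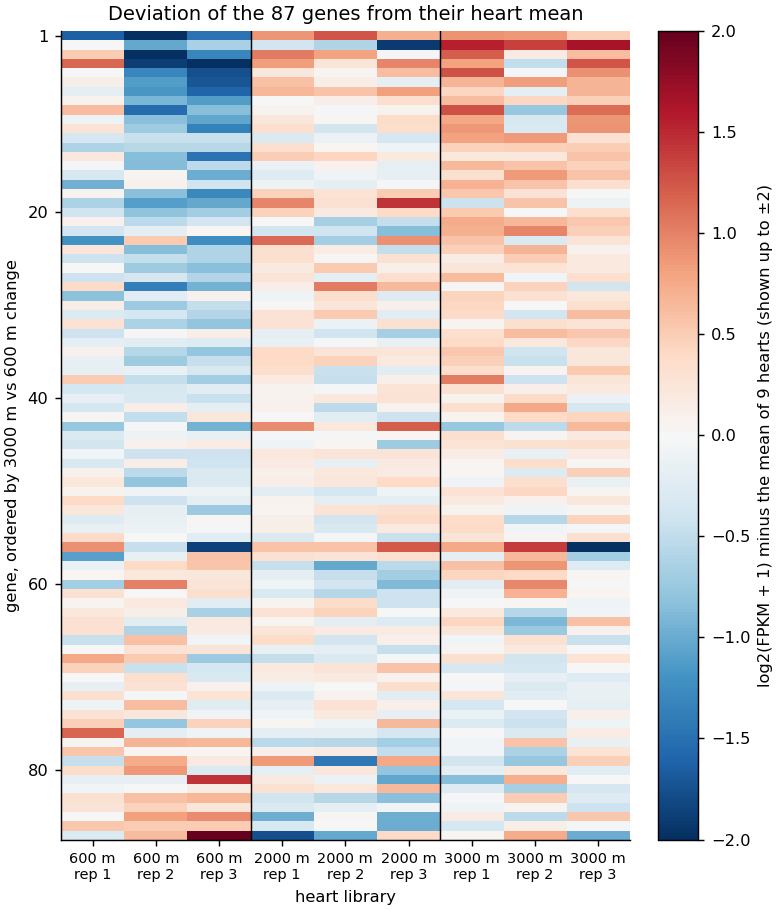
Deviation of each of the 87 genes (rows, ordered by the 3000 m vs 600 m change) from its mean log2(FPKM + 1) over the 9 heart libraries (columns, colour scale shown up to ±2). Replicates 2 and 3 at 600 m are low for most upper rows, while replicate 1 at 600 m is pale or raised for many of them.

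Read by altitude, more members were highest at 3000 m than at the other altitudes. The highest of the 3 altitude means was at 3000 m for 41 members (47.1%), at 2000 m for 28 (32.2%) and at 600 m for 18 (20.7%). Over all genes tested in heart these shares were 25.5%, 43.0% and 31.5%. The lowest mean was at 600 m for 48 members, at 2000 m for 26 and at 3000 m for 13, or 55.2%, 29.9% and 14.9% of members against 50.04%, 23.2% and 26.7% of all genes tested. Means rose from 600 m through 2000 m to 3000 m for 28 members (32.2%, against 17.56% of all genes tested) and fell in that order for 5 (5.75%, against 16.2%).

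At 3000 m against 600 m, 18 of the 87 genes were higher and 0 were lower in heart (limma on log2(FPKM + 1), Benjamini-Hochberg adjusted p at most 0.05). This was 20.7% of the members, against a background of 11.1% of all 12363 genes tested. By direction, 7.38% of all genes tested were called higher and 3.75% lower. The median change of the members was 0.37 on the log2 scale and that of all genes tested 0.08, and 61 members had a positive change. All 3 hearts from 3000 m lay above all 3 hearts from 600 m for 26 members (29.9%), against 21.0% of all genes tested, and below them for 3 members (3.45%), against 12.3%. At an unadjusted p under 0.05 there were 36 members (41.4%, against 31.6% of all genes tested).

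The largest rise in that comparison was that of GOAT_ENSBTAP00000008819. It was measured at 46.4, 35.7 and 51.6 FPKM in the 600 m hearts, at 270, 350 and 238 FPKM in the 2000 m hearts and at 273, 267 and 203 FPKM in the 3000 m hearts. The 600 m hearts were thus all far below the others, and the 2 higher altitudes overlapped. The change on the log2 scale was 2.45 (SE 0.20, limma adjusted p = 0.00145) at 3000 m against 600 m and 2.65 (SE 0.20, adjusted p = 0.00108) at 2000 m against 600 m. The call held in both comparisons under all 12 alternatives, with adjusted p up to 0.0142 and 0.0102.

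The second largest rise at 3000 m, that of GOAT_ENSBTAP00000000573, had no call at 2000 m against 600 m. This gene was measured at 33.0, 15.7 and 20.7 FPKM in the 600 m hearts, at 25.1, 21.4 and 8.07 FPKM in the 2000 m hearts and at 98.7, 86.9 and 106 FPKM in the 3000 m hearts. All 3 hearts from 3000 m were above the 6 others, and the 600 m and 2000 m hearts overlapped. The change at 3000 m against 600 m was 2.08 on the log2 scale (SE 0.38, limma adjusted p = 0.0169), and the change at 3000 m against 2000 m was 2.49 (SE 0.38, adjusted p = 0.122) and missed the threshold. The first call held under 8 of 12 alternatives, and the highest adjusted p among them was 0.0650. The gene stood at rank 79 of 87 by the heart difference, and its 3000 m hearts raised the heart mean that chose it. The call at 3000 m is therefore not independent of the choice.

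The remaining 16 members called at 3000 m rose by 0.50 to 1.73 on the log2 scale. One of them, GOAT_ENSP00000410257, was singled out after the values were seen for its small spread. It was measured at 8.45, 8.92 and 8.86 FPKM in the 600 m hearts, at 17.5, 14.03 and 12.6 FPKM at 2000 m and at 19.1, 19.3 and 19.5 FPKM at 3000 m. The 3 altitudes did not overlap. Its change was 1.06 (SE 0.13, limma adjusted p = 0.0101) at 3000 m and 0.68 (SE 0.13, adjusted p = 0.00951) at 2000 m, each against 600 m, on the log2 scale.

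The count of 18 depended on single hearts. Without replicate 1 at 600 m it was 30, without replicate 2 at 600 m it was 7 and without replicate 3 at 600 m it was 4. Without replicate 1, 2 or 3 at 3000 m it was 1, 13 and 5. With only the 600 m and 3000 m hearts in the fit it was 5, and 0 members were called lower under any alternative.

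**Figure D4:**
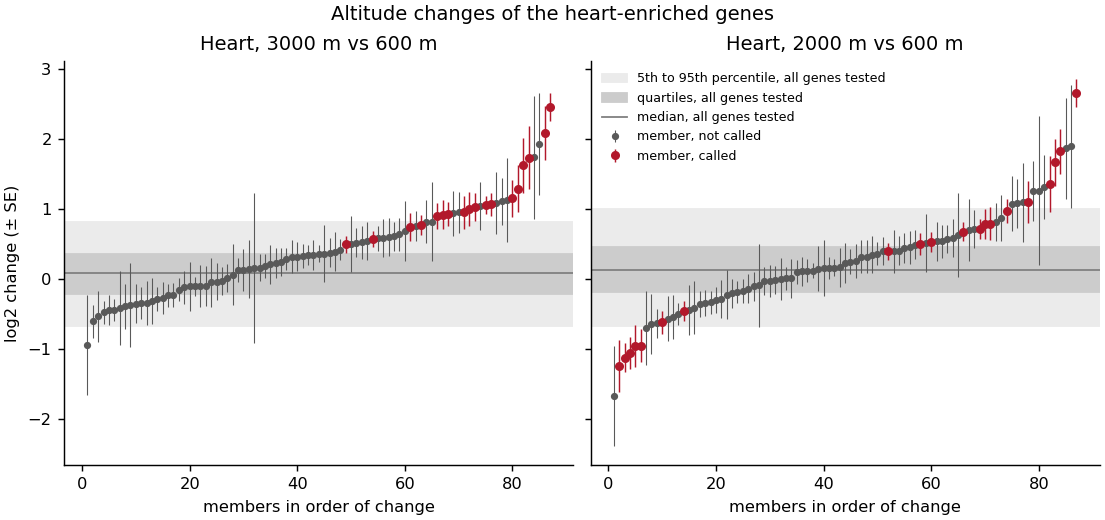
Log2 change ± SE of the 87 heart-enriched genes in heart (y axis) at 3000 m (left) and 2000 m (right) against 600 m, with members in order of change (x axis), called members in red, and grey bands for the quartiles and the 5th to 95th percentiles of all 12363 genes tested. On the left the 18 called members all lie above 0. On the right 13 lie above 0 and 7 below.

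At 2000 m against 600 m, 20 members changed in heart, 13 higher and 7 lower (limma, adjusted p at most 0.05). This share of 23.0% was near the background of 22.5% of all genes tested. By direction, 16.3% of all genes tested were called higher and 6.18% lower. The median change was 0.24 on the log2 scale for the members and 0.13 for all genes tested, and 56 members had a positive change. All 3 hearts from 2000 m lay above those from 600 m for 22 members (25.3%), against 28.4% of all genes tested, and below them for 8 (9.20%), against 12.4%. The split between directions moved with the scaling of the libraries: it was 6 higher and 9 lower after median-of-ratios scaling, and 15 higher and 3 lower after quantile normalization. The count was 33 without replicate 1 at 600 m and 9 without replicate 2 or replicate 3 at 600 m. Without replicate 1, 2 or 3 at 2000 m it was 10, 12 and 9. Both comparisons use the same 600 m hearts.

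After GOAT_ENSBTAP00000008819, described above, the largest rise at 2000 m was that of GOAT_ENSBTAP00000029220. It was measured at 33.5, 23.9 and 25.3 FPKM in the 600 m hearts, at 104, 64.9 and 144 FPKM in the 2000 m hearts and at 38.96, 78.9 and 48.9 FPKM in the 3000 m hearts. The 2000 m hearts were all above the 600 m hearts, with the 3000 m hearts in between and overlapping the former. The change was 1.83 on the log2 scale (SE 0.32, limma adjusted p = 0.00669) at 2000 m and 0.94 (SE 0.32, adjusted p = 0.0840) at 3000 m, each against 600 m.

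Among the falls at 2000 m, the largest was that of GOAT_ENSBTAP00000031243. It was measured at 39.4, 70.4 and 76.5 FPKM in the 600 m hearts, at 19.4, 39.8 and 19.5 FPKM in the 2000 m hearts and at 44.2, 27.0 and 57.7 FPKM in the 3000 m hearts. The 600 m and 2000 m hearts overlapped through 1 library of each. The change was -1.24 (SE 0.37, limma adjusted p = 0.0391), and it held under 5 of 12 alternatives, with adjusted p up to 0.120.

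The other named fall, that of GOAT_ENSBTAP00000017086, was held by all libraries. It was measured at 352, 431 and 454 FPKM in the 600 m hearts, at 217, 194 and 159 FPKM in the 2000 m hearts and at 283, 409 and 239 FPKM in the 3000 m hearts. The 2000 m hearts were below the 6 others. The change at 2000 m against 600 m was -1.12 on the log2 scale (SE 0.21, limma adjusted p = 0.00861), it was called under all 12 alternatives, and the change at 3000 m against 600 m was -0.44 (SE 0.21, adjusted p = 0.187). The plot of named genes sets these patterns side by side.

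**Figure D5:**
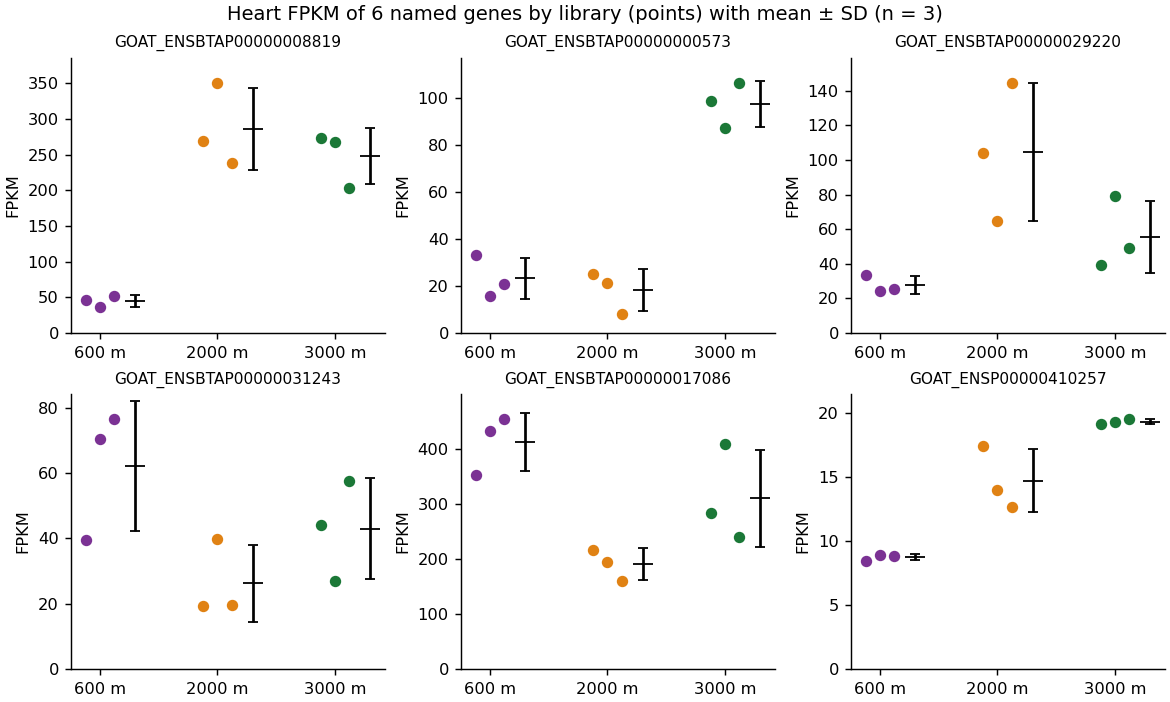
Heart FPKM (y axis, from 0) of 6 named heart-enriched genes at 600 m, 2000 m and 3000 m. Points are libraries and bars are mean ± SD (n = 3). GOAT_ENSBTAP00000008819 is lowest in the 600 m hearts (35.7 to 51.6 FPKM), GOAT_ENSBTAP00000000573 is highest in the 3000 m hearts (86.9 to 106 FPKM), and GOAT_ENSBTAP00000017086 is lowest in the 2000 m hearts (159 to 217 FPKM).

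Between 3000 m and 2000 m, 0 of the 87 genes passed the test in heart (limma), and 24 had an unadjusted p under 0.05. Of all genes tested, 1 was called (0.00809%) and 14.5% had an unadjusted p under 0.05, against 27.6% of the members. The median change was 0.12 on the log2 scale for the members and -0.06 for all genes tested. The count stayed at 0 under every alternative run.

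The 2 members most like GOAT_ENSBTAP00000008425 in their pattern over the 9 hearts had a Pearson r of 0.84 for GOAT_ENSBTAP00000022213 and 0.79 for GOAT_ENSP00000316924. The former was measured at 97.0, 63.5 and 70.6 FPKM at 600 m, at 92.0, 57.5 and 65.9 FPKM at 2000 m and at 154, 146 and 133 FPKM at 3000 m. The latter was measured at 182, 208 and 244 FPKM at 600 m, at 185, 181 and 132 FPKM at 2000 m and at 392, 468 and 331 FPKM at 3000 m. Each had its 3 highest heart values at 3000 m. Their changes at 3000 m against 600 m were 0.92 (SE 0.20) and 0.90 (SE 0.19) on the log2 scale (limma, adjusted p = 0.0265 and 0.0241), and those at 2000 m against 600 m were -0.10 and -0.35 (adjusted p = 0.742 and 0.200). The calls at 3000 m held under 6 of 12 and 8 of 12 alternatives, with adjusted p up to 0.0952 and 0.0812. The heart difference of GOAT_ENSP00000316924 was 3.01, near the limit of 3, and its 3000 m hearts raised the mean that chose it. Its call at 3000 m is therefore not independent of the choice. The likeness is a description over 9 libraries.

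In lung, 55 of the 87 genes had a mean above 0.5 FPKM and were tested. At 3000 m against 600 m 2 of them were called, both higher, against a background of 2.84% of all genes tested in lung. At 2000 m against 600 m 1 was called, against 5.10%. The gene called in both, GOAT_ENSBTAP00000011047-D2, was measured in lung at 0.834, 0 and 0.199 FPKM at 600 m, at 1.99, 2.79 and 1.98 FPKM at 2000 m and at 2.97, 1.62 and 2.80 FPKM at 3000 m. These levels were low, with the 600 m lungs below the 6 others, and changes of 1.39 (SE 0.27, limma adjusted p = 0.0441) and 1.31 (SE 0.27, adjusted p = 0.0403) on the log2 scale. The gene called at 3000 m alone, GOAT_ENSBTAP00000008425, was measured in lung at 0.387, 0.544 and 0.164 FPKM at 600 m and at 5.51, 1.71 and 3.11 FPKM at 3000 m (change 1.62, SE 0.33, limma adjusted p = 0.0454). In heart these genes averaged 4404 and 8075 FPKM. At 600 m their lung means of 0.344 and 0.365 FPKM were under the limit of 0.5 FPKM, so they entered the test through the higher altitudes and the calls are no independent support for a rise. Without 1 library the lung counts ranged from 0 to 4 and from 0 to 5: leaving out replicate 1 at 600 m gave the 4 and the 5, and leaving out any other lung library gave 0.

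In muscle, 51 of the 87 genes were tested, with replicates 1 and 2 at 600 m as 1 sample. At 3000 m against 600 m 5 members were called, all higher, against a background of 2.10% of all genes tested in muscle, and 42 of the 51 had a positive change. Of all 11904 genes tested in muscle, 93 were called higher and 157 lower, and their share with a positive change is not given. The median change of the members was 0.44 on the log2 scale and that of all genes tested -0.08. The 5 were GOAT_ENSP00000316924, GOAT_ENSBTAP00000008425, GOAT_ENSBTAP00000000306, GOAT_ENSBTAP00000000573 and GOAT_ENSBTAP00000028361, with changes of 1.57 to 1.97 on the log2 scale. GOAT_ENSP00000316924, with the largest of these changes, was measured in muscle at 8.003, 8.57 and 8.65 FPKM at 600 m, at 13.7, 11.4 and 9.98 FPKM at 2000 m and at 63.7, 26.9 and 27.4 FPKM at 3000 m (SE 0.35, limma adjusted p = 0.0314). Its 3000 m muscles were all above the 6 others, and replicate 1 was far above replicates 2 and 3. That muscle library was the highest of the 9 for 30 of the 87 genes. Without it 1 member was called, without replicate 2 at 3000 m 13 were, and without replicate 3 at 3000 m or replicate 3 at 600 m 0 were. The count was 9 when the near-identical 600 m muscles were counted apart, and it was 0 with only the 2 compared altitudes or with no filter on low values.

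At 2000 m against 600 m 1 muscle gene was called, GOAT_ENSBTAP00000042923, against a background of 5.96%. It was measured in muscle at 0.101, 0 and 0 FPKM at 600 m and at 0.848, 1.75 and 1.29 FPKM at 2000 m, with a change of 1.14 (SE 0.22). Its muscle mean of 0.510 FPKM passed the limit of 0.5 FPKM only through the 2000 m group, so the call was tied to the filter, and with no filter the muscle count was 0. In heart the same gene was measured at 6.996, 12.4 and 6.07 FPKM at 600 m and at 25.1, 14.6 and 30.3 FPKM at 2000 m (change 1.36, SE 0.40, limma adjusted p = 0.0387), a call that held under 4 of 12 alternatives. In each tissue every 2000 m library was above every 600 m library. The muscle count was 0 without replicate 3 at 2000 m or at 600 m and 3 without the merged 600 m sample.

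Whether the heart change differed from that of another tissue was tested as a difference of changes (an interaction contrast in limma). Among genes with a mean above 0.5 FPKM in both tissues, a filter added after the data were seen, 0 of 55 members differed from lung at 3000 m vs 600 m (background 0.0502%) and 0 of 55 at 2000 m vs 600 m (0.184%). These fits ignored the pairing of hearts with lungs by replicate number, and this filter was not run with the animal as a block. The absence of calls is therefore not read as a like change in heart and lung. An unadjusted p under 0.05 was found for 12 and 9 of the 55 members, against 1267 and 1559 of all 11956 genes tested. Against muscle, 1 of 51 members differed at 3000 m vs 600 m (background 1.41%) and 2 of 51 at 2000 m vs 600 m (6.31%).

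The planned fit took all 12363 genes expressed in heart, whatever their level in the other tissue. It called 2 members against lung at 3000 m (background 0.121%), 2 against lung at 2000 m (0.324%), 3 against muscle at 3000 m (1.25%) and 5 against muscle at 2000 m (5.35%). Of these, 2, 2, 2 and 3 had a mean of at most 0.5 FPKM in the other tissue, where the log2(FPKM + 1) scale leaves little room for change, so that the difference restates the heart change. The best example is GOAT_ENSBTAP00000008819, listed at 0 in 8 of 9 lungs, whose difference from lung at 2000 m equals its heart change of 2.65. No difference between tissues is therefore read from them. Replicate numbers paired hearts with lungs, and with the animal as a block the planned counts against lung were 5 and 6. Over all 12363 genes the block raised the calls against lung from 15 to 68 at 3000 m and from 40 to 140 at 2000 m. Without replicate 1 of the 600 m hearts the 4 planned counts were 6, 6, 7 and 8. The planned muscle count at 3000 m was 13 without replicate 2 of the 3000 m muscles and 7 without the merged 600 m sample. The planned muscle count at 2000 m was 2 or 3 without any 1 of the 2000 m hearts and 3 without replicate 2 or 3 of the 600 m hearts, replicate 1 of the 2000 m muscles or replicate 3 of the 600 m muscles. The planned lung count at 2000 m was 1 without replicate 1 of the 2000 m hearts, replicate 2 or 3 of the 600 m hearts, any 1 of the 2000 m lungs or replicate 2 or 3 of the 600 m lungs.

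The member that differed from muscle at 3000 m was GOAT_ENSBTAP00000028361, whose changes had opposite signs in the 2 tissues. It was measured in heart at 185, 180 and 181 FPKM at 600 m and at 99.4, 138 and 124 FPKM at 3000 m, with a change of -0.60 (SE 0.24, limma adjusted p = 0.119) that missed the threshold. In muscle it was measured at 3.68, 3.68 and 1.87 FPKM at 600 m and at 12.2, 10.5 and 7.52 FPKM at 3000 m, and it rose by 1.57 on the log2 scale (SE 0.32, adjusted p = 0.0422, called under 6 of 12 alternatives). In both tissues the 600 m and 3000 m libraries did not overlap. At 2000 m it was measured at 101, 128 and 63.1 FPKM in heart, overlapping 3000 m. In muscle the 2000 m values of 1.81, 3.75 and 3.51 FPKM overlapped 600 m. Its heart change at 2000 m against 600 m was -0.95 (limma adjusted p = 0.0213, called under 9 of 12 alternatives). The heart change minus the muscle change at 3000 m was -2.17 (SE 0.41, adjusted p = 0.00993), and it was called under 17 of 18 alternatives. Opposite signs at 3000 m vs 600 m were found for 18 of the 51 members tested in both tissues, and the share over all genes is not given.

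The members that differed from muscle at 2000 m were GOAT_ENSBTAP00000029220 and GOAT_ENSP00000419361. The former was measured in muscle at 1.44, 0.512 and 0.362 FPKM at 600 m and at 0.580, 0.319 and 0.142 FPKM at 2000 m, and its heart change exceeded its muscle change by 2.12 (SE 0.39, limma adjusted p = 0.00776). The latter was measured in heart at 38.1, 19.1 and 13.8 FPKM at 600 m and at 69.9, 65.6 and 78.4 FPKM at 2000 m, and in muscle at 0.765, 1.11 and 1.07 FPKM and at 1.104, 1.39 and 1.32 FPKM. Its heart change exceeded its muscle change by 1.49 (SE 0.39, adjusted p = 0.0325), a call that held under 9 of 18 alternatives. Both genes are low in muscle, with means of 0.568 and 1.19 FPKM. GOAT_ENSBTAP00000029220 passed the limit of 0.5 FPKM with 0.772 FPKM at 600 m and 0.347 FPKM at 2000 m, so the groups compared helped decide its entry. Its heart change alone was 1.83, and its call is no independent support for a difference between tissues.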

How the data were processed

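Total RNA from heart, lung and skeletal muscle was sequenced as strand-specific libraries per the labels. The authors aligned reads with TopHat2 2.0.11 and estimated FPKM with Cufflinks 2.2.1. The methods name these steps, with the goat genome CHIR_1.0, for the 600 m and 3000 m animals, and the handling of the 2000 m libraries is not given in the sources used here. The values deposited by the authors are log2(FPKM + 1), and FPKM was computed back by raising 2 to each value and subtracting 1. Genes at 0 in every library (3602) were kept in the table.

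Groups came from the labels. The members and lists were chosen with earlier results of these data known. Altitudes were compared within each tissue with limma 3.58.1 in R 4.3.3 (lmFit, eBayes with trend) on log2(FPKM + 1), all 3 altitudes in 1 fit, for genes with a tissue mean above 0.5 FPKM, two-sided with Benjamini-Hochberg adjustment over all genes tested and a threshold of 0.05. On this scale the change of low genes is understated. Cuffdiff, which the study used, needs files not used here. Differences of changes between tissues came from a fit over the 9 groups. Muscle replicates 1 and 2 at 600 m were averaged, giving 26 samples. The labels do not say which libraries come from 1 animal. Same-numbered hearts and lungs deviated together (r 0.16 to 0.50 for all 9 pairs), so the block is given beside that result, while heart with muscle (-0.28 to 0.32, median 0.20, against -0.07 for different numbers) and hearts across altitudes (-0.12 to 0.13) did not in every pair. P-values measure the spread between these samples.

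Named genes were the 2 with the largest heart difference, the 2 with the highest heart level, the 2 largest rises and falls per heart comparison among called members, the genes at the limit and the 2 most like the most abundant member. Others are said to have been chosen after their values were seen, and members of counts of 5 or fewer are named on the same footing. Planned marker and pathway lists were not run, since no ID had a symbol. Alternatives were another pseudocount (0.1), median-of-ratios and quantile scaling, no filter on low values, a replicate block, a filter in both tissues for differences between tissues (chosen after seeing the data), only the 2 compared altitudes and leaving out each replicate. The code was tested on simulated data. Figures were drawn with matplotlib 3.10.9 in Python 3.11.15.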

Additional observations from a re-analysis of the deposited data

Results flagged for a closer look

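For 3 members the heart change differed from the change in muscle (limma interaction contrast, adjusted p at most 0.05) among the 51 with a muscle mean above 0.5 FPKM. Of all genes above 0.5 FPKM in both tissues, 1.41% were called at 3000 m vs 600 m and 6.31% at 2000 m vs 600 m. The members called were thus near or below the background. The difference was -2.17 on the log2 scale for GOAT_ENSBTAP00000028361 at 3000 m vs 600 m. At 2000 m vs 600 m it was 2.12 for GOAT_ENSBTAP00000029220, called under 18 of 18 alternatives with adjusted p up to 0.0427, and 1.49 for GOAT_ENSP00000419361, called under 9 of 18. The muscle mean of GOAT_ENSBTAP00000029220 was 0.568 FPKM, with 0.772 FPKM at 600 m, so the groups compared helped decide its entry.

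Further members called by the planned fit had a mean of at most 0.5 FPKM in lung or muscle and are not listed as differences between tissues. Groups of 3 libraries were too small for the test of single outlying samples.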

How the results depend on the processing

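In heart at 3000 m vs 600 m, 18 members were called, 14 with the replicate block and 5 with only the 2 compared altitudes, and the other fits over all libraries gave 12 to 18. At 2000 m vs 600 m the count of 20 became 16 with the replicate block, and the numbers do not pair hearts across altitudes. Leaving out 1 library gave 1 to 30 members at 3000 m vs 600 m, 9 to 33 at 2000 m vs 600 m and 0 at 3000 m vs 2000 m. The median change of the members ranged from 0.35 to 0.45, from 0.18 to 0.29 and from 0.046 to 0.25 in those runs, the last without replicate 2 at 3000 m. The cause of these shifts was not tested.

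Lung at 3000 m vs 600 m gave 0 members under quantile normalization, the replicate block or the 2 compared altitudes, 1 with no filter and 0 to 4 without 1 library. Lung at 2000 m vs 600 m gave 2 with the pseudocount of 0.1 or median-of-ratios scaling, 0 with no filter, the block or the 2 compared altitudes, and 0 to 5 without 1 library. Muscle at 3000 m vs 600 m gave 0 with no filter or the 2 compared altitudes, 9 with replicates 1 and 2 at 600 m separate, and 0 to 13 without 1 sample. Muscle at 2000 m vs 600 m gave 0 with no filter or the block, 2 with the 2 compared altitudes or separate replicates, and 0 to 3 without 1 sample.

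For the difference from lung at 3000 m, the count was 0 with the filter in both tissues, 1 with the pseudocount of 0.1, 5 with the animal block and 2 to 6 without 1 library. At 2000 m it was 0 with that filter or that pseudocount, 1 under either scaling, 6 with the block and 1 to 6 without 1 library. For the difference from muscle at 3000 m, it was 1 with that filter or that pseudocount, 5 under quantile normalization, 7 with the block (the numbers did not pair hearts with muscles), 6 with separate replicates and 2 to 13 without 1 sample. At 2000 m it was 2 with that filter or that pseudocount, 9 with the block, 8 with separate replicates and 2 to 8 without 1 sample.

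The share of heart FPKM was 0.775%, 0.885% and 0.919% at 600 m, 2000 m and 3000 m without the 10 most abundant members, and 4.78% and 4.92% at 2000 m and 3000 m with the most abundant gene of each library left out of the total. Without 1 library it was 3.07% to 4.04%, 4.34% to 4.59% and 4.18% to 4.60%. For the 26 changes of single named genes that were called, 114 of 312 alternative runs lost the call and 0 reversed it, and 5 runs of uncalled changes gained one. Depth is unknown, so how far counting error limits the low lung and muscle values could not be set.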
